A study of Mus musculus with 3 samples.

Results

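The genes described here encode the receptors of the VEGF and angiopoietin pathways and 3 of their ligands in vessels isolated from the mouse brain. They are Kdr, Flt1 and Flt4 (the VEGF receptors), Tek and Tie1 (the Tie receptors), Nrp1 and Nrp2 (the neuropilin co-receptors), Vegfa, Angpt1 and Angpt2. These 10 genes were taken by name from the 29917 genes of the deposited tables as a set of related genes, with no expression threshold. Each gene was represented by its transcript with the largest total count. All 10 were found, and all 10 passed the count minimum, which asked for 50 normalized counts in 1 or both members of a pair of libraries.

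Vessel RNA was sequenced in 3 libraries, each a pool of brain vessels from 3 animals that were 3 months old: C57BL6 WT, C57BL6-BALB/c WT and Cx30-/-, in which Gjb6, the gene of the astroglial gap junction protein connexin 30, was deleted throughout the body. The sample labels give the Cx30-/- mice a C57BL6 background and the study's methods a mixed one with BALB/c, so both WT libraries served as controls. With 1 library per group, no difference between groups could be set against a spread between replicates, and genotype, background and preparation cannot be told apart. The isolated vessels hold endothelial cells, pericytes and smooth muscle cells together, and in such bulk RNA fewer cells of a type and less RNA per cell cannot be told apart.

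VEGFA is secreted by cells around a vessel and acts on the endothelium through the receptor tyrosine kinase VEGFR2, the product of Kdr, while VEGFR1, the product of Flt1, binds the same ligand tightly and signals weakly. Angiopoietin 1 comes largely from mural cells and activates TIE2, the product of Tek, to keep vessels quiescent, whereas angiopoietin 2 is stored in endothelial cells and can oppose it. In the adult brain these pathways act on the survival of the endothelium and on the tightness of the blood-brain barrier, not all in the same direction.

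The promoters of the 4 most abundant kinase receptor genes and of Vegfa are shown as those of the main receptors and of the ligand that differed from them in direction: relative to all genes, the receptors were higher in the Cx30-/- library than in both WT libraries (lower when set against endothelial markers), and Vegfa was lower. Each is the run of 250 bases before the RefSeq start on GRCm38.p6, read 5′ to 3′ on the gene's strand, with capitals marking GGAA or its reverse complement TTCC, the core letters bound by ETS factors, which are active in endothelial cells. The RefSeq promoter table held 8 of the 10 genes.
Flt1 (chr5:147726012-147726261, minus strand): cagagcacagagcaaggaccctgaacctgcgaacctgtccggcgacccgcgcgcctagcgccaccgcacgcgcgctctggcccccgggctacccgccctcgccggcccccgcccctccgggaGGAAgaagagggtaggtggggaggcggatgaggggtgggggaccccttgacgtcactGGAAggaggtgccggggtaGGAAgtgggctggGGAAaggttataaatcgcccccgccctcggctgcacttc
Kdr (chr5:75978456-75978705, minus strand): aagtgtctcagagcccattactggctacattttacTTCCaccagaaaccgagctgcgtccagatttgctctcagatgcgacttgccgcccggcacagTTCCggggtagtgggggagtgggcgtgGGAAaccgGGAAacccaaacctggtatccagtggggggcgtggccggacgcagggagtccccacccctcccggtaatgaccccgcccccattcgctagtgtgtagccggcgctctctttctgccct
Tek (chr4:94739039-94739288, plus strand): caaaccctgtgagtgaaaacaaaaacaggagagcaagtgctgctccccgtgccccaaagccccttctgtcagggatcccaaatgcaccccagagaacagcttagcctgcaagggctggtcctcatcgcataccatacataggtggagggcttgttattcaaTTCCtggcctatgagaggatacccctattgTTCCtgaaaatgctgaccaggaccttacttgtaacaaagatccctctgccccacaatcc
Tie1 (chr4:118489850-118490099, minus strand): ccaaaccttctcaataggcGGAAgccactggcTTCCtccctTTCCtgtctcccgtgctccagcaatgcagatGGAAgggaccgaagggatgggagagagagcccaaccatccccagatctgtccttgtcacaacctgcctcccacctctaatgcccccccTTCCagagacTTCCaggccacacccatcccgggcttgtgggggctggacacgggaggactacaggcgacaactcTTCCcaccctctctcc
Vegfa (chr17:46032378-46032627, minus strand): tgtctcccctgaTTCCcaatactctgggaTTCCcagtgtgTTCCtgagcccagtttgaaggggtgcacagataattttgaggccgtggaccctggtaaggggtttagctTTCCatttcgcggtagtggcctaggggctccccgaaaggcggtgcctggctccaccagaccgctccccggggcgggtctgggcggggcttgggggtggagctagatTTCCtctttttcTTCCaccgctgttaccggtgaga

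Across 32851 RefSeq promoters of the same length, 93.4% held GGAA or TTCC and the median number of matches was 3. Tie1 held 7 matches, a number reached or passed by 3.82% of promoters, and Vegfa held 6, reached or passed by 8.69%. The RefSeq start of Tie1 lies 212 bases inside the gene span given below, so most of its run is within that span. Flt1 and Kdr held 4 each, a number reached or passed by 33.4% of promoters, and Tek held 2, reached or passed by 76.8%. The letters ACGTG, searched on both strands as the core bound by hypoxia-inducible factors, were found in 16.6% of promoters. They were in none of the 5 runs shown. A second RefSeq start of Vegfa held 1 match to them. These matches describe the letters only.

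The deleted gene itself was checked first. Gjb6 had 2899 counts in C57BL6 WT, 2246 in C57BL6-BALB/c WT and 96 in Cx30-/-, and the log2 ratio of normalized counts was -4.65 and -4.59 against the respective WT libraries. The deposited totals behind each library, recovered from the count and the fraction given for every transcript, were 24830975, 21170766 and 20654144 in the same order. The libraries also differed in the level of endothelial markers. Summed over 12 endothelial markers that include none of the 10 genes (among them Pecam1, Cldn5 and Cdh5), normalized counts were 109643 in C57BL6 WT, 63213 in C57BL6-BALB/c WT and 138441 in Cx30-/-. Their geometric mean, used below as a second way to scale the libraries, was 6292 normalized counts in C57BL6 WT, 3687 in C57BL6-BALB/c WT and 7908 in Cx30-/-. All 12 markers were higher in Cx30-/- than in each WT library, and none was at 0 in any library.

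Levels are compared between genes as normalized counts per kilobase of transcript, where normalized means divided by the library's size factor. Flt1 was the most abundant of the 10 genes in every library, at 3753 per kilobase in C57BL6 WT, 2385 in C57BL6-BALB/c WT and 4399.6 in Cx30-/-. Tie1, a receptor that partners TIE2, followed with 1841, 1205 and 2048 per kilobase. Tek stood close to it, with a ratio of Tie1 to Tek of 1.09 (95% interval 1.05 to 1.12) in C57BL6 WT, 1.08 (1.03 to 1.12) in C57BL6-BALB/c WT and 1.01 (0.98 to 1.04) in Cx30-/-. These neighbours were thus within counting error of each other in Cx30-/-, and Tie1 was above Tek in both WT libraries.

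The angiopoietins were at the other end of the order. Angpt1 had 89.5, 107 and 148 counts per kilobase and Angpt2 had 134, 122 and 155 in C57BL6 WT, C57BL6-BALB/c WT and Cx30-/-, respectively. Above them came Nrp1, Nrp2 and Flt4, in this order in all 3 libraries. The place of Vegfa moved most: it was level with Kdr in C57BL6 WT, above Kdr in C57BL6-BALB/c WT and below Kdr in Cx30-/-.

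**Figure D1:**
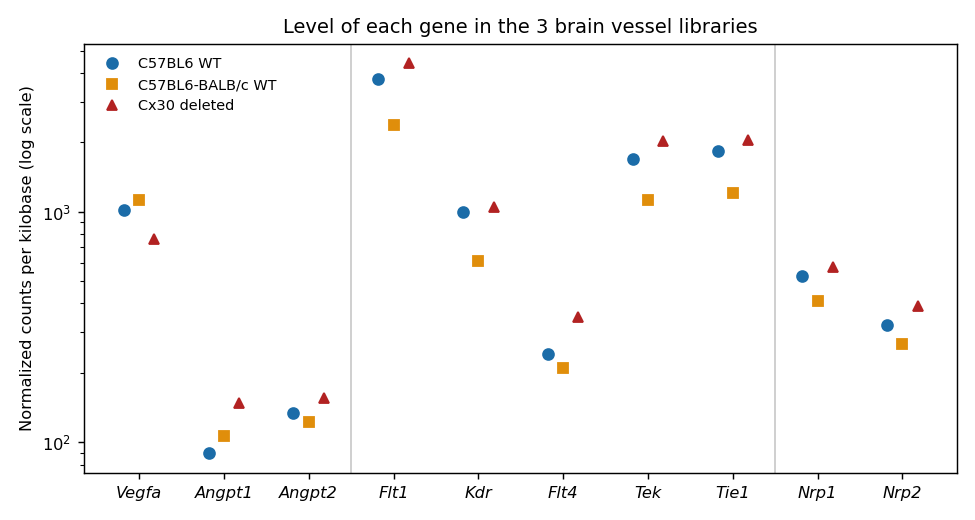
The level of each of the 10 genes in normalized counts per kilobase of transcript (log scale), with 1 symbol per library and the genes grouped as ligands, kinase receptors and neuropilins. Flt1 lay at the top, between 2385 and 4399.6, Angpt1 and Angpt2 at the bottom, and Vegfa was the 1 gene with its lowest value in Cx30-/-.

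Across the 10 genes, 9 had higher normalized counts in Cx30-/- than in either WT library and 1, Vegfa, had fewer than in either. Of all 14688 genes past the minimum in both comparisons, 37.1% lay above both WT libraries and 36.6% below both. Both comparisons use the same Cx30-/- library and are not independent. Against C57BL6 WT, the 95% counting interval of the ratio lay above 0 on the log2 scale for 9 genes and below 0 for 1, when 25.7% of all genes tested were higher and 28.3% lower by this rule. Against C57BL6-BALB/c WT the numbers were again 9 and 1, beside 35.6% and 36.2% of all genes. These intervals are exact binomial intervals of the 2 raw counts and cover the sampling of reads only.

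The differences were small. None of the 10 genes reached a 2-fold difference in any comparison, which 2.68% of genes did against C57BL6 WT, 8.69% against C57BL6-BALB/c WT and 3.43% between the WT libraries. The median log2 ratio of the 10 genes was 0.22 against C57BL6 WT and 0.64 against C57BL6-BALB/c WT, while the median of all genes was -0.005 and 0.004. When the libraries were scaled to the endothelial markers in place of all genes, these medians turned to -0.11 and -0.46, with 8 and 10 of the genes lower in Cx30-/-.

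**Figure D2:**
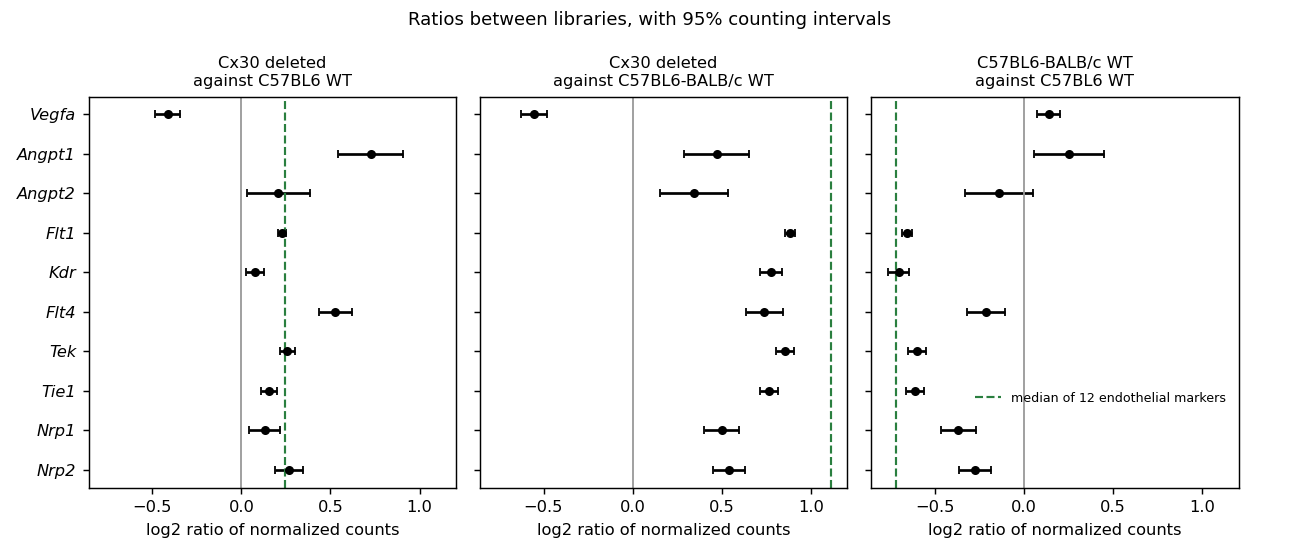
Log2 ratio of normalized counts of each gene in the 3 comparisons, with 95% counting intervals (bars) and the median of 12 endothelial markers (dashed line). Against both WT libraries 9 genes lay right of 0 and Vegfa left, while between the WT libraries Vegfa and Angpt1 lay right of 0 and the other 8 left; scaling to the endothelial markers turns most of these signs.

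Flt1 encodes VEGFR1 (ENSMUSG00000029648; GRCm38 chromosome 5, 147561604 to 147726011, minus strand). Its normalized count was 25879 in the C57BL6 WT library, 16444 in C57BL6-BALB/c WT and 30335 in Cx30-/-. The Cx30-/- library was the highest, by a log2 ratio of 0.23 (95% interval 0.21 to 0.25) against C57BL6 WT and of 0.88 (0.86 to 0.91) against C57BL6-BALB/c WT. The WT libraries differed from each other by more than the former, with a log2 ratio of -0.65 for C57BL6-BALB/c WT against C57BL6 WT. Scaled to the endothelial markers, Flt1 was lower in Cx30-/-, by log2 ratios of -0.10 and -0.22. Flt1 also makes a truncated, secreted form that traps VEGFA. Of its 5 transcripts in the tables, Flt1-203 had 16504, 9191 and 17831 raw counts in C57BL6 WT, C57BL6-BALB/c WT and Cx30-/-, and the row used had 29637, 15224 and 28917. Transcripts share exons and therefore reads, and these rows do not separate the forms.

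Kdr encodes VEGFR2, the main signalling receptor of VEGFA (ENSMUSG00000062960; chromosome 5, 75932827 to 75978458, minus strand). Its normalized counts were 5889.8 in C57BL6 WT, 3618 in C57BL6-BALB/c WT and 6202 in Cx30-/-. The C57BL6 WT and Cx30-/- libraries were nearly level, with a log2 ratio of 0.07 (0.02 to 0.13), and the C57BL6-BALB/c WT library was the low one. Against it the log2 ratio of Cx30-/- was 0.78 (0.72 to 0.84), and that of C57BL6 WT was of much the same size, as C57BL6-BALB/c WT stood at -0.70 (-0.76 to -0.64) to it. On the endothelial scale, Kdr was lower in Cx30-/- by log2 ratios of -0.26 and -0.32.

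Flt4 encodes VEGFR3, the receptor of VEGFC and VEGFD, best known from lymphatic vessels (ENSMUSG00000020357; chromosome 11, 49609263 to 49652739, plus strand). Its normalized count was 1514 in the C57BL6 WT library, 1307 in C57BL6-BALB/c WT and 2182 in Cx30-/-. Here, relative to all genes, the WT libraries lay close together and Cx30-/- apart from both, with log2 ratios of 0.53 (0.43 to 0.62) and 0.74 (0.64 to 0.84). With the endothelial scaling the first was 0.20 and the second turned to -0.36.

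The Tie receptors gave like values. Tek (ENSMUSG00000006386; chromosome 4, 94739289 to 94874976, plus strand), the angiopoietin receptor, was at 7892 normalized counts in the C57BL6 WT library, 5210.5 in C57BL6-BALB/c WT and 9439 in Cx30-/-. Tie1 (ENSMUSG00000033191; chromosome 4, 118471191 to 118490061, minus strand) had 7529.7, 4931 and 8379. For both genes the Cx30-/- library was the highest and C57BL6-BALB/c WT the lowest. The log2 ratio of Tek was 0.26 (0.22 to 0.30) in the comparison with C57BL6 WT and 0.86 (0.81 to 0.91) in that with C57BL6-BALB/c WT. For Tie1 the log2 ratios were 0.15 (0.11 to 0.20) and 0.76 (0.71 to 0.82). Between the WT libraries they were -0.60 for Tek and -0.61 for Tie1. On the endothelial scale both genes were lower in Cx30-/-, by -0.07 and -0.24 for Tek and by -0.18 and -0.34 for Tie1.

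The neuropilins bind VEGF and class 3 semaphorins beside the kinase receptors. Nrp1 (ENSMUSG00000025810; chromosome 8, 128358604 to 128503363, plus strand) was at 1908 normalized counts in the C57BL6 WT library, 1479 in C57BL6-BALB/c WT and 2089.7 in Cx30-/-. Nrp2 (ENSMUSG00000025969; chromosome 1, 62703285 to 62818695, plus strand) had 2169, 1796 and 2610.0. For both genes Cx30-/- was the highest library and C57BL6-BALB/c WT the lowest, as for the receptors. The log2 ratios were 0.13 (0.04 to 0.22) and 0.50 (0.40 to 0.60) for Nrp1, and 0.27 (0.19 to 0.35) and 0.54 (0.45 to 0.63) for Nrp2, against C57BL6 WT and C57BL6-BALB/c WT. With the endothelial scaling they turned to -0.20 and -0.60 for Nrp1 and to -0.06 and -0.56 for Nrp2. The Nrp1 transcript overlaps the microRNA gene Mir1903 over 37 bases on the same strand, and reads there could be counted for either.

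Vegfa, the ligand of Flt1 and Kdr, went the other way (ENSMUSG00000023951; chromosome 17, 46016993 to 46032369, minus strand). Its normalized count was 3511 in the C57BL6 WT library, 3868 in C57BL6-BALB/c WT and 2635 in Cx30-/-. Relative to all genes the WT libraries were close, with a log2 ratio of 0.14 for C57BL6-BALB/c WT against C57BL6 WT, and Cx30-/- was below both, by a log2 ratio of -0.41 (-0.49 to -0.34) against C57BL6 WT and of -0.55 (-0.63 to -0.48) against C57BL6-BALB/c WT. These were 0.751 and 0.681 times the WT values. Of all genes tested, 10.8% had a lower ratio than Vegfa in the first comparison and 15.9% in the second. The sign stayed negative under every scaling tried, but none of them could have turned it. Endothelial scaling lowers the ratio of every gene against either WT library, and the other scalings moved ratios by at most 0.13. Scaled to the endothelial markers, the log2 ratios of Vegfa were -0.74 and -1.65. On that scale the WT libraries were no longer close: they differed by 0.91 (0.85 to 0.98), more than Cx30-/- differed from C57BL6 WT. Cx30-/- differed from C57BL6-BALB/c WT by more than this.

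All 10 Vegfa transcripts in the tables were lower in Cx30-/-, with log2 ratios from -0.52 to -0.40 in the comparison with C57BL6 WT and from -1.02 to -0.53 in that with C57BL6-BALB/c WT. These transcripts share reads. Markers of cells outside the vessel wall differed between the libraries as well. The study describes the preparation as free of astrocyte cell bodies, with few Gfap fibres left on the vessels. The summed normalized counts of 7 astrocyte markers were 42990.0 in C57BL6 WT, 41757 in C57BL6-BALB/c WT and 35038 in Cx30-/-, and 5 and 4 of the 7 were lower in Cx30-/- in the respective comparisons. The sums of 7 neuron markers were 56385, 74506 and 41562, with 6 of 7 lower in both. The sums of 6 choroid plexus markers were 146343, 56974 and 77006, lower in Cx30-/- than in C57BL6 WT and higher than in C57BL6-BALB/c WT. The sums of 6 oligodendrocyte markers were 49006, 44114 and 38565, with 6 and 5 of the 6 lower. The astrocyte, neuron and oligodendrocyte sums were thus lowest in Cx30-/-, as Vegfa was. Of the astrocyte markers, only Gfap, Slc1a3 and Slc1a2 were lowest there. Aqp4, Aldoc and Aldh1l1 lay between the WT libraries, and Gja1 was highest in Cx30-/-. The sums of 6 microglia and macrophage markers were 5678.5, 3772 and 5132, with 4 and 2 of the 6 lower in Cx30-/-. Like the choroid plexus sum, the microglia and macrophage sum was not lowest in Cx30-/-. No marker of these lists was at 0 in any library, and their part in the Vegfa difference was not tested.

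**Figure D3:**
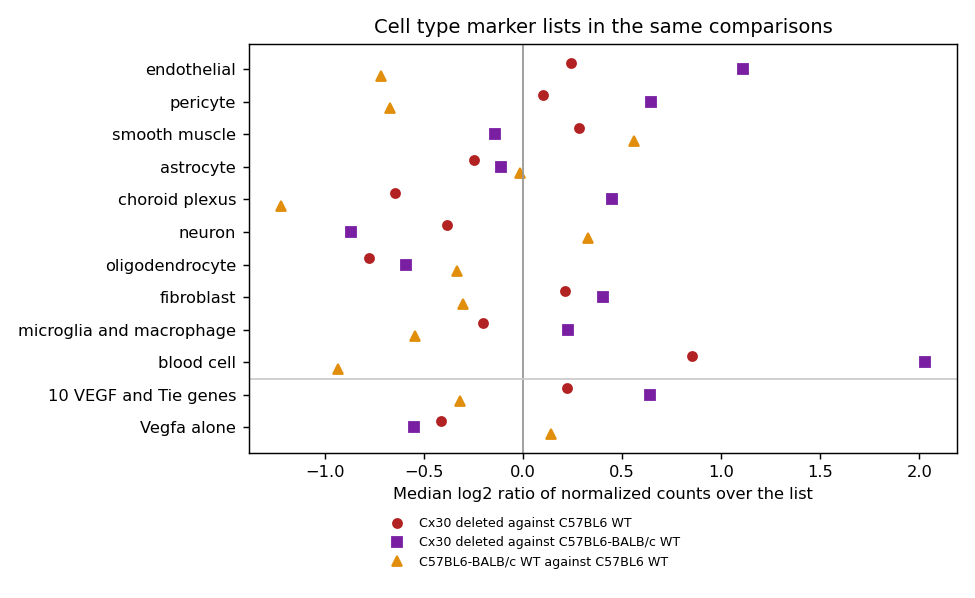
Median log2 ratio of normalized counts over each cell type marker list in the 3 comparisons (symbols), with the 10 VEGF and Tie genes and Vegfa alone in the lowest rows. Endothelial, pericyte, fibroblast and blood cell markers lay right of 0 against both WT libraries, while neuron, astrocyte and oligodendrocyte markers and Vegfa lay left of 0. The astrocyte median against C57BL6-BALB/c WT, -0.11, however turned to 0.01 with total count scaling.

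The angiopoietins were the least abundant of the genes and have the widest intervals. Angpt1 (ENSMUSG00000022309; chromosome 15, 42424723 to 42676977, minus strand), the activating ligand of TIE2, was at 380.7 normalized counts in the C57BL6 WT library, 453.6 in C57BL6-BALB/c WT and 629.4 in Cx30-/-. It had the largest ratio of the 10 genes against C57BL6 WT, a log2 ratio of 0.73 (0.54 to 0.91), and one of 0.47 (0.29 to 0.66) against C57BL6-BALB/c WT. Unlike the receptors it was lowest in C57BL6 WT and higher in C57BL6-BALB/c WT, by 0.25 (0.06 to 0.45). On the endothelial scale the log2 ratio against C57BL6 WT was 0.40 and that against C57BL6-BALB/c WT turned to -0.63.

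Angpt1 is made largely by mural cells, and the summed normalized counts of 8 pericyte markers were 65443 in C57BL6 WT, 41206 in C57BL6-BALB/c WT and 70216 in Cx30-/-. Those of 5 smooth muscle markers were 33414, 50202 and 44369.6. Like Angpt1, the smooth muscle sum was lowest in C57BL6 WT, but its highest value was in C57BL6-BALB/c WT. Whether mural content had a part in the Angpt1 difference was not tested. The libraries kept no strand, and the Angpt1 transcript overlaps the antisense gene Gm17473 over 737 of 4260 bases, so that reads of the pair cannot be told apart there.

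Angpt2 (ENSMUSG00000031465; chromosome 8, 18690263 to 18741562, minus strand), the context-dependent antagonist, was at 476.8 normalized counts in the C57BL6 WT library, 433.1 in C57BL6-BALB/c WT and 550.8 in Cx30-/-. The libraries were closer for this gene than for Angpt1. Against C57BL6 WT the log2 ratio was 0.21 (0.03 to 0.38), against C57BL6-BALB/c WT it was 0.35 (0.16 to 0.54), and between the WT libraries the interval, -0.33 to 0.05, held 0. Scaled to the endothelial markers, Angpt2 was lower in Cx30-/-, by -0.12 and -0.75.

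**Figure D4:**
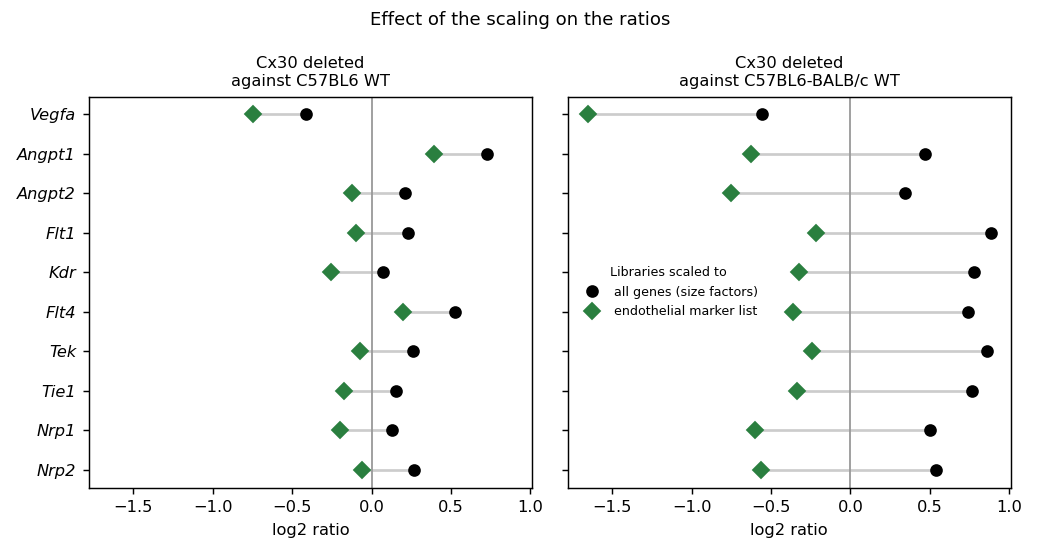
Log2 ratio of each gene in Cx30-/- against C57BL6 WT (left) and against C57BL6-BALB/c WT (right), with the libraries scaled to all genes (circles) or to the 12 endothelial markers (diamonds). With the endothelial scaling 8 of 10 genes lay left of 0 in the left panel and 10 of 10 in the right, and Vegfa was farthest left in both.

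The WT libraries, which differ in background, were a measure of how far these genes can differ with Cx30 in place. Between them 2 of the 10 genes were higher in C57BL6-BALB/c WT by the counting interval, 7 lower and 1 neither, beside 33.2% and 31.2% of all genes tested that were higher and lower. The median log2 ratio was -0.32, and 0.45 when scaled to the endothelial markers, all 10 genes then being higher in C57BL6-BALB/c WT. For 6 genes (Kdr, Flt1, Tek, Tie1, Nrp1 and Nrp2) the WT libraries differed by more than Cx30-/- differed from C57BL6 WT. For the other 4 (Flt4, Angpt1, Angpt2 and Vegfa) they differed by less relative to all genes, but by more on the endothelial scale, where this held for 8 of the 10 genes, all but Kdr and Tie1. Relative to all genes, Cx30-/- differed from C57BL6-BALB/c WT by more than the WT libraries differed, for each of the 10. Examples are Kdr (0.78 beside -0.70) and Vegfa (-0.55 beside 0.14). On the endothelial scale this held for all but Flt4 and Angpt1.

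Ratios between genes of the same library do not depend on the scaling. Per kilobase, Vegfa was 1.02 times Kdr (95% interval 0.98 to 1.06) in C57BL6 WT, 1.83 times (1.75 to 1.92) in C57BL6-BALB/c WT and 0.729 times (0.696 to 0.764) in Cx30-/-. The ligand was thus level with its receptor in one WT library, above it in the other and below it in Cx30-/-, with no overlap of the counting intervals. The ratio of Vegfa to Flt1 had the same order, at 0.271, 0.470 and 0.174. The difference between the WT libraries in these ratios was larger than that between C57BL6 WT and Cx30-/-. That between C57BL6-BALB/c WT and Cx30-/- was larger still.

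Among the receptor pairs compared, Flt1 to Kdr, Tie1 to Tek and Nrp1 to Nrp2 held steadier ratios, and Flt4 to Kdr moved more. Other receptor pairs were not compared. Flt1 was 3.78, 3.90 and 4.20 times Kdr, Tie1 was 1.09, 1.08 and 1.01 times Tek, and Nrp1 was 1.63, 1.53 and 1.49 times Nrp2, in C57BL6 WT, C57BL6-BALB/c WT and Cx30-/-. Flt4 was 0.243 (0.231 to 0.257), 0.342 (0.320 to 0.365) and 0.333 (0.317 to 0.350) times Kdr, with C57BL6 WT clearly the lowest. The ratio of Angpt1 to Angpt2, the activating to the context-dependent ligand, was 0.665 (0.585 to 0.756) in C57BL6 WT, 0.872 (0.759 to 1.00) in C57BL6-BALB/c WT and 0.952 (0.845 to 1.07) in Cx30-/-. Its intervals overlapped between C57BL6-BALB/c WT and Cx30-/-, and C57BL6 WT was below both.

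**Figure D5:**
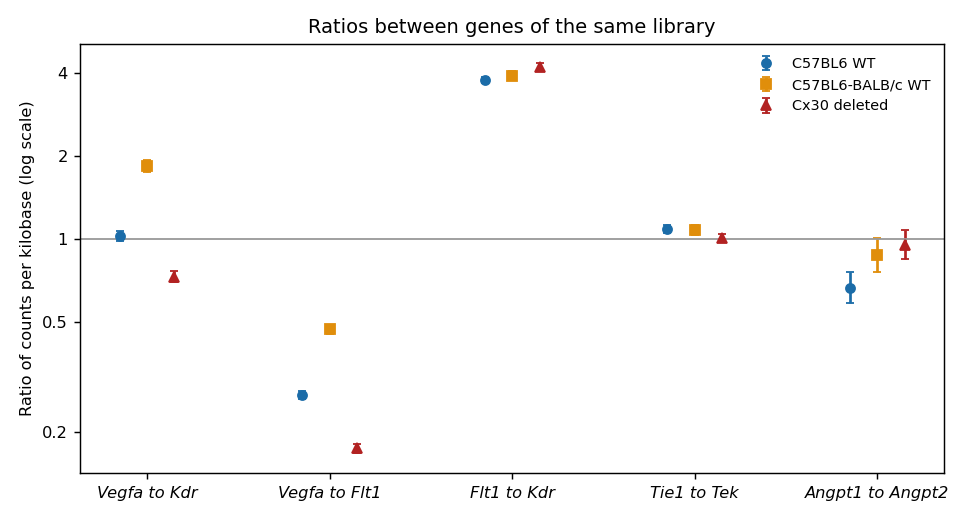
Ratio of normalized counts per kilobase between genes of the same library (log scale), with 95% counting intervals and 1 symbol per library. Vegfa to Kdr ranged from 0.729 in Cx30-/- to 1.83 in C57BL6-BALB/c WT, while Tie1 to Tek stayed between 1.01 and 1.09.

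With both WT libraries taken as 1 group, the edgeR quasi-likelihood test called 0 of the 10 genes at a Benjamini-Hochberg adjusted p under 0.05, beside 0.0512% of all 17576 genes tested. The adjusted p of the 10 genes ran from 0.515 to 0.901 in edgeR. Flt4 was the 1 gene with an unadjusted p under 0.05 (edgeR log2 ratio 0.63, unadjusted p = 0.0321, adjusted p = 0.515), and 8.69% of all genes had one. DESeq2 called 0 of the 10, with 0 at an unadjusted p under 0.05. The spread in this test is the difference between 2 WT libraries of different backgrounds, so it measures these libraries and not mice. In edgeR it was largely shared over all genes, with 1 residual degree of freedom per gene beside a prior of 20.37.

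Beyond the 10 genes, 52 genes of 7 lists around these pathways were examined, of which 51 passed the minimum. Against C57BL6 WT 33 were higher and 18 lower, and 2 (3.92%) were at least 2-fold different, beside 2.68% of all genes. Against C57BL6-BALB/c WT 38 were higher and 13 lower, and 7 (13.7%) were at least 2-fold different, beside 8.69%. No gene of the lists was 2-fold different in the same direction in both. These directions are relative to all genes: scaled to the endothelial markers, the sign turned in 30 of the 51 medians over all pathway and marker lists and comparisons.

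Of the 5 other ligands, 5 were higher in Cx30-/- against C57BL6 WT and 4 against C57BL6-BALB/c WT, with medians of 0.50 and 0.80. Vegfb, which binds VEGFR1, had the highest level per kilobase with 671.5, 675.1 and 785.7 normalized counts in the order of libraries used above. Vegfc, a ligand of VEGFR3, had 868.8, 370.5 and 976.7, and its log2 ratio was 0.17 against C57BL6 WT and 1.40 against C57BL6-BALB/c WT. The low C57BL6-BALB/c WT value is again what set the larger ratio. Angpt4, a further TIE2 ligand, had 29, 64 and 59 raw counts, and its log2 ratios were 1.29 (0.62 to 1.98) and -0.16 (-0.69 to 0.37).

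The receptor partners, most of them proteins that sit beside these receptors in the membrane or bind their tails, had medians of 0.15 and 0.24. Cdh5, the adherens junction cadherin of endothelium, had 8703, 5599 and 9647 normalized counts and the highest mean level per kilobase over the 3 libraries, although Ptprb was above it per kilobase in C57BL6-BALB/c WT and Cx30-/-. Ptprb, the phosphatase that restrains TIE2, had 11133, 9801 and 16877, with log2 ratios of 0.60 and 0.78. Relative to all genes, Ptprb thus stood apart from both WT libraries as Flt4 did, while Cdh5 was low in C57BL6-BALB/c WT as Kdr was. For neither Flt4 nor Ptprb did this hold on the endothelial scale, which lowers all ratios of a comparison by the same amount. Flt4 then had log2 ratios of 0.20 and -0.36. Flt1, with a larger ratio than Ptprb against C57BL6-BALB/c WT (0.88), turned to -0.22, so the ratio of Ptprb also turned negative. Against C57BL6 WT, Ptprb had a larger ratio than Flt4 and likewise stayed positive. Gipc1, an adaptor of neuropilin, was level, at -0.01 and 0.07.

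Of 10 signalling genes past the minimum, 7 were higher and 3 lower in each comparison. Nos3, the endothelial nitric oxide synthase, had the highest mean level per kilobase over the 3 libraries, although Plcg1 was above it in C57BL6-BALB/c WT. It had 6101, 5382 and 8013 normalized counts, and log2 ratios of 0.39 and 0.57. Foxo1, the transcription factor that TIE2 signalling restrains and that drives Angpt2, had log2 ratios of 0.24 and 0.81. Ptk2, the focal adhesion kinase, was the lowest of the list, at -0.33 and -0.54. Ptk2 is expressed in many cell types, and Nos3 mainly in endothelium.

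Relative to all genes, the genes known to respond to VEGF in endothelium did not move one way. Against C57BL6 WT 1 of 7 was higher and against C57BL6-BALB/c WT 4 of 7. Dll4, a Notch ligand of tip and arterial cells, had 2151, 851 and 2923 normalized counts and log2 ratios of 0.44 and 1.78. Egr3, an immediate early gene also expressed in neurons, had 956, 2178 and 720 and log2 ratios of -0.41 and -1.60. Nr4a1, the most abundant per kilobase and likewise an immediate early gene, stood at -0.16 and -0.43. The genes of the list thus ran in opposite directions relative to all genes, with the widest gap against C57BL6-BALB/c WT. The list medians of -0.16 and 0.14 became -0.49 and -0.96 on the endothelial scale.

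Among 5 genes of VEGFC maturation and lymphatic vessels, Adamts3, the protease that activates VEGFC, was lowest against C57BL6-BALB/c WT, with 310, 698 and 228 normalized counts and log2 ratios of -0.45 and -1.62. Pdpn, the most abundant of these per kilobase, stood at 0.17 and 0.55, and Lyve1 at -0.58 and 0.39. Of the 7 class 3 semaphorins, Sema3g, which arterial endothelium expresses, was the most abundant per kilobase, with 7332, 5840 and 9004 normalized counts and log2 ratios of 0.30 and 0.62. Sema3c had log2 ratios of 0.69 and 0.95, Sema3d of 1.43 and 0.36, and Sema3e, a ligand of plexin D1, of -0.49 and -1.06. Semaphorins therefore lay on both sides of 0.

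Of 12 genes of the hypoxia response, 9 were higher in Cx30-/- than in C57BL6 WT and 11 than in C57BL6-BALB/c WT relative to all genes, with medians of 0.14 and 0.35, which turned to -0.19 and -0.75 on the endothelial scale. Slc2a1, the glucose transporter of the barrier and the most abundant per kilobase, had 37284, 28794 and 45339 normalized counts and log2 ratios of 0.28 and 0.65. Ankrd37 had 172, 167 and 307, with log2 ratios of 0.84 and 0.88. Adm, which encodes adrenomedullin, had 148, 94.0 and 199, with log2 ratios of 0.43 and 1.08. Arnt, the partner of the hypoxia-inducible factors, was lower, at -0.23 and -0.56.

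The genes whose pattern over the 3 libraries was nearest to that of Kdr and of Vegfa were sought among 7854 genes with at least 500 normalized counts in every library, by the Euclidean distance of log2 levels centred on each gene's mean. Nearest to Kdr were Ppp1r15a, Rps3 and Pdgfrb, the last a pericyte receptor, which had 7063, 4353 and 7392 normalized counts. Nearest to Vegfa were Zdhhc21, Acvr1b and Elmod1, at distances of 0.005, 0.012 and 0.013. Within a distance of 0.1 there were 87 genes for Kdr and 164 for Vegfa, so that 3 libraries set few patterns apart.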

How the data were processed

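RNA from brain vessels was sequenced in 3 libraries and grouped by the genotype and background of the labels. Polyadenylated RNA was read without strand. After trimming and quality filters, the authors mapped reads by Bowtie, kept those with a single match, and deposited raw counts of exon-overlapping reads for 82813 Ensembl transcripts. A further column that the authors deposited gives the count as a fraction of a library total, and served here to recover that total (20654144 to 24830975). Processing notes name CASAVA 1.8.2 and mm10, but only 1.6% of starts in the files match GENCODE M21, so coordinates come from GENCODE M21 (GRCm38) by transcript identifier. It named 69375 transcripts (83.8%) of 29917 genes.

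Here, each gene took its transcript with the largest total count, except that of Nrp2 tied transcripts the longer was used. Library size factors were medians of ratios (1.1452, 0.9258 and 0.9532 for C57BL6 WT, C57BL6-BALB/c WT and Cx30-/-). Genes with at least 50 normalized counts in 1 of 2 compared libraries were tested for a 2-fold ratio. The 95% intervals are exact conditional binomial (Clopper-Pearson; scipy 1.17.1) and cover counting error only. The test across genes was the quasi-likelihood test of edgeR 4.0.16 (R 4.3.3) after filterByExpr and TMM, with Benjamini-Hochberg adjustment, with DESeq2 1.42.0 as alternative. On simulated counts (17505 genes, 200 changed by a log2 ratio of 3, dispersion 0.01) it found 200 of 200 and 12 others; the real common biological coefficient of variation was 0.2103, at which recovery was not tested. Named beside the 10 genes were, per pathway list, the gene with the highest mean level per kilobase over the 3 libraries, any gene 2-fold different in the same direction in both Cx30-/- comparisons, and the highest and lowest ratio in each. Nrp1's neighbour Mir1903, Plcg1 and the marker examples were named after their values were seen. The members and lists were chosen with earlier results of these data known. Alternatives were TMM, total count and endothelial marker scaling, the sum of transcripts, the longest transcript, a pseudocount of 1, other count minimums and a 1.5-fold threshold.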

Additional observations from a re-analysis of the deposited data

How the results depend on the processing

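Scaling decided the direction of most genes. No paired analysis was possible because there is 1 library per group. Scaled to 12 endothelial markers, which moved the median of all genes by -0.34 (Cx30-/- against C57BL6 WT), -1.11 (against C57BL6-BALB/c WT) and 0.78 (between the WT libraries), the sign turned in 24 of 30 ratios. Against C57BL6 WT the log2 ratios became -0.26 for Kdr, -0.10 for Flt1, -0.0715 for Tek, -0.18 for Tie1, -0.12 for Angpt2, -0.20 for Nrp1 and -0.0628 for Nrp2 (median -0.11). Against C57BL6-BALB/c WT they became -0.32 for Kdr, -0.22 for Flt1, -0.36 for Flt4, -0.24 for Tek, -0.34 for Tie1, -0.63 for Angpt1, -0.75 for Angpt2, -0.60 for Nrp1 and -0.56 for Nrp2 (median -0.46), and 1 gene, Vegfa, was 2-fold different. Between the WT libraries they became 0.0683 for Kdr, 0.12 for Flt1, 0.56 for Flt4, 0.17 for Tek, 0.16 for Tie1, 0.63 for Angpt2, 0.40 for Nrp1 and 0.50 for Nrp2 (median 0.45), and 1 gene, Angpt1, was 2-fold different. Scaling to the total count moved the median of all genes by 0.13 against C57BL6-BALB/c WT and -0.13 between the WT libraries, gave medians of the 10 genes of 0.77 and -0.44, and put 1 gene past 2-fold against C57BL6-BALB/c WT. No sign of the 10 genes turned under total count or TMM scaling, the sum of transcripts, the longest transcript or a pseudocount of 1, while total count scaling turned 2 of 51 list medians (astrocyte markers against C57BL6-BALB/c WT, -0.11 to 0.01, and VEGFC maturation genes between the WT libraries, 0.04 to -0.08). A 1.5-fold threshold gave 1 gene against C57BL6 WT, 5 against C57BL6-BALB/c WT and 4 between the WT libraries. The number of all genes that edgeR called, 9, became 135 without its filter, 14 with the sum of transcripts and 7 in DESeq2, and the cause was not tested. With 1 library per group, depth sets the width of the counting intervals, which is widest for Angpt1 and Angpt2.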
